A study of Mus musculus with 12 samples.

Results

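The SREBP2 control and cholesterol uptake genes were a set of 7 genes named by symbol, Srebf2, Scap, Insig1, Insig2, Stard4, Mylip and Scarb1, out of 47729 genes counted in mouse liver. The rule that names them uses no measured value, although the set was chosen with earlier results of these data known. All 7 passed the filter on low counts that left 16823 genes for testing. Liver RNA was sequenced from 12 male C57BL/6 mice in 3 groups of 4. The naive group (Naive_vehicle, mouse model WT) had a normal diet and vehicle. The STAM groups were injected under the skin with streptozotocin, a toxin of pancreatic beta cells, at day 2 of life and were fed a high-fat diet from week 4, a model of fatty liver inflammation (NASH) in diabetic mice. From week 6 to 9 they received vehicle (STAM_vehicle) or I-BET151 at 10 mg/kg by mouth once a day (STAM_treated). I-BET151 is a small molecule that blocks the bromodomains of the BET proteins, chromatin readers that promote transcription. The STAM groups carry the toxin and the diet together, so these cannot be told apart, and I-BET151 was given in another suspension than the methylcellulose of the vehicle group. In bulk liver RNA, fewer cells of a type and less RNA per cell also cannot be told apart.

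Cells hold their cholesterol steady by feedback. The transcription factor SREBP2, encoded by Srebf2, is made as a membrane protein of the endoplasmic reticulum, where it is bound to the escort protein SCAP. When sterols are low, SCAP carries SREBP2 to the Golgi, proteases release its active part, and genes of cholesterol synthesis and uptake are switched on. When sterols are high, INSIG1 or INSIG2 holds SCAP back. Insig1, Srebf2 and Stard4 are themselves known SREBP2 targets, whereas Mylip, which encodes the ubiquitin ligase IDOL, a brake on lipoprotein uptake, is a target of the sterol sensor LXR. STARD4 moves cholesterol between membranes, and SCARB1 (SR-BI) takes up cholesterol from HDL at the hepatocyte surface.

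The upstream sequences of the SREBP2 gene and of both INSIG genes are shown because these are the feedback genes that the results below turn on. RefSeq promoter windows on GRCm38.p6 held 5 of the 7 genes, and each stretch is printed 5′ to 3′ on the strand of its gene, ending before the first annotated transcript base. Capitals mark matches, on either strand, to the core of the sterol regulatory element (TCACCCCA), the NF-Y box (CCAAT, or ATTGG on the other strand), the Sp1 box (GGGCGG, or CCGCCC) and the E-box (CACGTG), none of which overlap in the printed stretches. These are Srebf2 at chr15:82147019-82147180 on the plus strand, Insig1 at chr5:28071162-28071362 on the plus strand and Insig2 at chr1:121332590-121332839 on the minus strand.
Srebf2: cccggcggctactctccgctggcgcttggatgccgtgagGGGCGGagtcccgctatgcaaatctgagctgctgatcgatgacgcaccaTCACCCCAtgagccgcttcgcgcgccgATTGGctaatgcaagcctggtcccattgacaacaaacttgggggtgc
Insig1: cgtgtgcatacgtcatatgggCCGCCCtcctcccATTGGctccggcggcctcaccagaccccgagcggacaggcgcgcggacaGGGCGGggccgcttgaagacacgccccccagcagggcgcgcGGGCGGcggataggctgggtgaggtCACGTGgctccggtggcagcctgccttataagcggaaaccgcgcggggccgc
Insig2: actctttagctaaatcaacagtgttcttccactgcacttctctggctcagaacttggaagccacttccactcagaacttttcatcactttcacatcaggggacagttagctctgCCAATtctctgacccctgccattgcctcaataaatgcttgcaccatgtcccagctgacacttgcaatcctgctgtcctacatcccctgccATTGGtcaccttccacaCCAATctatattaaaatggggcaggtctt
In the Srebf2 window the sterol element core began 162 bases before the RefSeq start and the NF-Y box 135 bases before it. The core was in 1.34% of 32851 promoter windows of the same 250 bases, the NF-Y box in 33.8%, the Sp1 box in 32.7% and the E-box in 6.02%. The 5 genes held 8 windows, of which 1 (Srebf2) had the core, 4 the NF-Y box, 6 the Sp1 box and 2 the E-box. The printed Insig1 stretch held an NF-Y box, 3 Sp1 boxes and an E-box, and the printed Insig2 stretch held 3 NF-Y boxes and none of the other motifs. The Insig2 windows not printed, at chr1:121328025-121328274 and chr1:121327679-121327928, each held an Sp1 box and no NF-Y box. Matches of these letters are descriptions only.

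Srebf2 also carries a microRNA. Mir33 lies in intron 16 of the 19-exon transcript Srebf2-201, and its mature strands, from RefSeq, are shown with the seed (bases 2 to 8) in capitals because they come from the same primary transcript as SREBP2.
mmu-miR-33-5p: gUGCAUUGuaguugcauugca
mmu-miR-33-3p: cAAUGUUUccacagugcaucac
The hairpin at chr15:82198122-82198190 had 0 to 1 counts a mouse. Libraries of this kind are made from mRNA fragments and do not measure the mature strands.

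The members were counted at Srebf2 (ENSMUSG00000022463, chr15:82147181-82205379), Scap (ENSMUSG00000032485, chr9:110333288-110384950), Insig1 (ENSMUSG00000045294, chr5:28071363-28078662), Insig2 (ENSMUSG00000003721, chr1:121304353-121332589), Stard4 (ENSMUSG00000024378, chr18:33199355-33213862), Mylip (ENSMUSG00000038175, chr13:45389742-45412022) and Scarb1 (ENSMUSG00000037936, chr5:125277087-125341094), all in GENCODE M21 on mm10. The 1 gene of the other strand whose exons overlap a member, 5830462I19Rik in Scap, had 7 to 99 counts against at least 3598 for Scap.

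Libraries held 34711229 to 53365596 counts, and each member had at least 524 counts in every mouse. I-BET151 mouse 3 stood apart: its 10 highest genes took 7.95% of its counts against 13.5% to 18.05% in the other 11 mice, and mitochondrial genes took 2.71% against 4.51% to 7.30%. The defining markers of hepatocytes, among them albumin, were abundant in every mouse, with sums over 6 markers of 108430 to 126720 CPM in naive, 56666 to 74734 CPM in STAM vehicle and 21630 to 87577 CPM in I-BET151 liver. Summed markers of macrophages (6 genes) ran from 179 to 250 CPM in naive, from 280 to 506 CPM in STAM vehicle and from 224 to 439 CPM in I-BET151 liver, and those of adipocytes (3 genes) were at most 0.265 CPM in any mouse. Summed neutrophil markers (3 genes) ran from 0.431 to 0.830 CPM in naive, 1.51 to 5.90 CPM in STAM vehicle and 0.663 to 4.29 CPM in I-BET151 liver. Summed T cell markers (4 genes) ran from 1.27 to 3.58 CPM in naive, 3.60 to 5.52 CPM in STAM vehicle and 1.42 to 1.92 CPM in I-BET151 liver, so that the treated mice lay below every STAM vehicle mouse. Of these 4 genes, Cd4 fell with I-BET151 in STAM liver (log2 fold change -1.77 ± 0.32, edgeR adjusted p = 0.0520), and it was the only gene of the marker lists to pass that test. Against naive liver, Clec4f, Adgre1, Cd68 and Cd8a were called higher in STAM vehicle, where 7.10% of all genes were called. In treated against naive liver, Clec4f, Cd68 and Krt7 were called higher and Reln lower, where 15.1% of all genes were called. The part of these shifts in the results below was not tested. CPM are counts scaled to a common library total after TMM scaling, which corrects library size for a few dominant genes.

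Per kilobase of exon, Insig2 was the most abundant of the 7 transcripts in every group. Its mean in naive liver was 136 ± 41.8 CPM per kilobase (SD, n = 4, as throughout), followed by Insig1 at 36.0 ± 3.71, Scarb1 at 27.96 ± 2.68 and Scap at 15.6 ± 1.81. Srebf2 (9.07 ± 0.337), Stard4 (9.07 ± 2.48) and Mylip (9.01 ± 1.94) lay together at the bottom, within their spread of each other. In STAM vehicle liver the order was the same except that Mylip (8.65 ± 1.08) stood above Stard4 (6.86 ± 1.89), a gap within their spread. In I-BET151 liver Scarb1 (25.1 ± 5.03) stood above Insig1 (19.0 ± 7.99), which also lay within their spread, and Stard4 was last at 3.60 ± 1.05, below every other member.

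**Figure D1:**
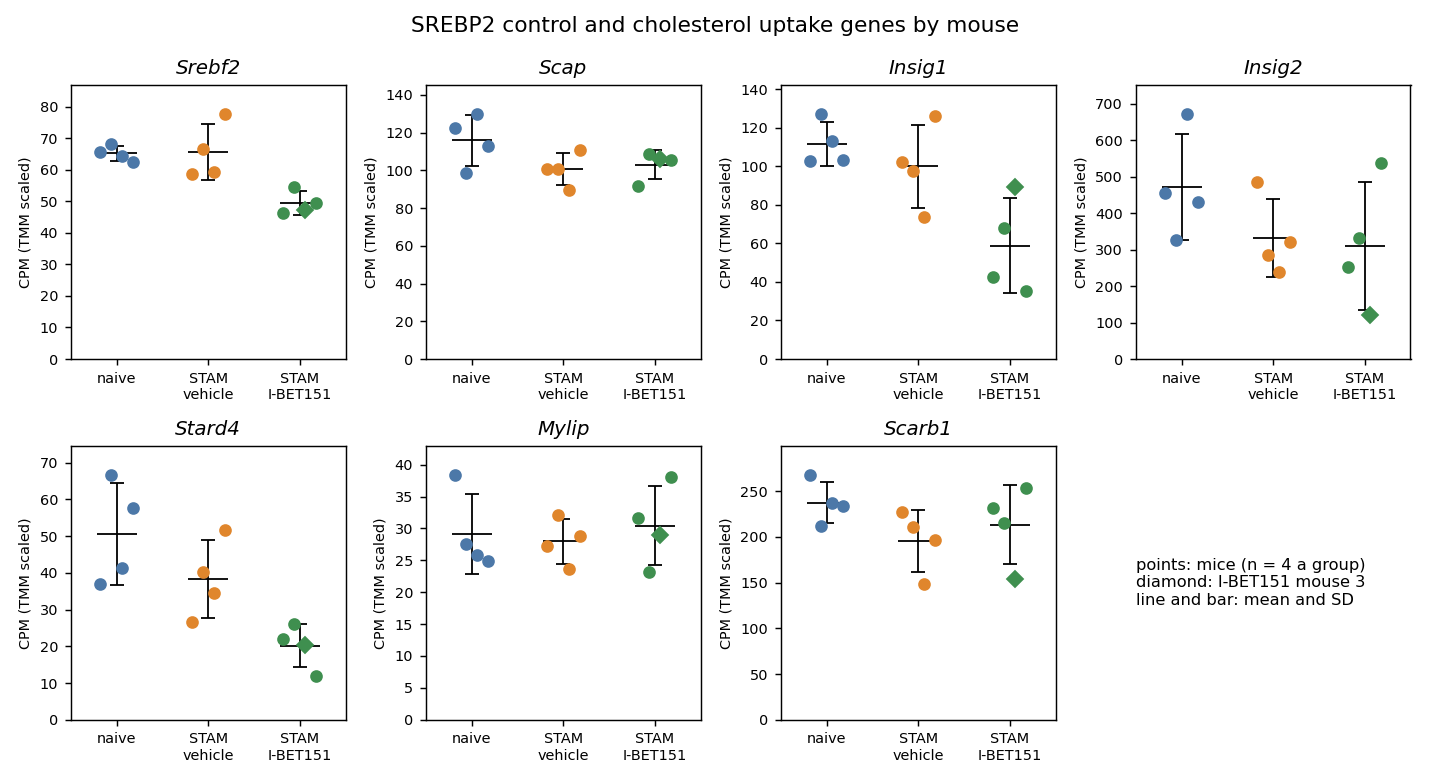
Level of each of the 7 genes in 12 mice, as TMM-scaled CPM on axes that start at 0, with the mean and SD of each group of 4. On this scaling the 4 I-BET151 mice sit below all 8 other mice for Srebf2 (46.2 to 54.6 CPM) and for Stard4 (12.04 to 25.996 CPM), whereas Insig1 of I-BET151 mouse 3 (diamond) lies within the STAM vehicle range. As shares of total counts these groups overlap.

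The first comparison asked what the diabetic NASH model did to these genes without I-BET151. None of the 7 passed the test between STAM vehicle and naive liver (edgeR quasi-likelihood test, adjusted p of at most 0.05), against 7.10% of all genes tested, 5.72% higher and 1.38% lower. No member had groups that did not overlap, against 26.4% of all genes, and no member had an unadjusted p under 0.05 by edgeR, against 22.3% of all genes. DESeq2 and limma-voom with sample weights also called 0 of 7, against 6.4% and 33.7% of all genes. The middle member in rank had a log2 fold change of -0.21, compared with 0.01 for the genes tested as a whole.

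Srebf2 was at 65.7, 68.2, 64.3 and 62.5 CPM in the naive mice and at 58.6, 66.7, 59.2 and 77.6 CPM in the STAM vehicle mice. The naive mice lay within the STAM vehicle range, and the log2 fold change was 0.01 ± 0.12 (standard error, as for all fold changes here; edgeR adjusted p = 0.980). Its sign turned under other settings. The other members had lower means in STAM vehicle. The largest difference was that of Insig2, with a log2 fold change of -0.50 ± 0.38 (edgeR adjusted p = 0.467), followed by Stard4 at -0.40 ± 0.25, Scarb1 at -0.28 ± 0.18 and Scap at -0.21 ± 0.13, with edgeR adjusted p from 0.369 to 0.393 for these last 3. Insig1 at -0.16 ± 0.25 and Mylip at -0.06 ± 0.17 were closest to 0, with edgeR adjusted p of 0.761 and 0.877. With counts alone, unscaled for dominant genes, Scap, Insig1 and Mylip had the opposite sign.

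Among the other genes of the pathway, few of each list passed the same comparison. Of 14 genes of SREBP processing and degradation 0 passed by edgeR, with 2 at an unadjusted p under 0.05 (22.3% of all genes). These were Srebf1, which encodes the related factor SREBP1 and differed by a log2 fold change of 0.65 ± 0.26 (edgeR adjusted p = 0.162), and Syvn1, a ubiquitin ligase of the endoplasmic reticulum, at 0.29 ± 0.12 (edgeR adjusted p = 0.164). Of 20 enzymes of sterol synthesis 1 rose, Mvd (1.29 ± 0.22), and 1 fell, Tm7sf2, a sterol reductase (-1.49 ± 0.23). Of 12 genes of LXR and its targets 1 rose, Cyp7a1, the rate-limiting enzyme of bile acid synthesis (0.91 ± 0.25, edgeR adjusted p = 0.0450), and 1 fell, Scd1, a fatty acid desaturase (-3.78 ± 0.58). Of 18 tested genes of uptake and handling 2 rose, the scavenger receptor Cd36 (1.78 ± 0.31) and Gramd1b, a sterol transporter (0.84 ± 0.19), and 0 fell. The medians of the 4 lists lay between -0.10 and 0.12, against 0.01 for the genes as a whole. Without I-BET151 mouse 3, which is in neither group but adds to the common estimate of spread, 4 of the 14, 5 of the 20, 5 of the 12 and 6 of the 18 passed, but so did 22.3% of all genes. With sequencing lane as a covariate 0 of each list passed, in a fit that called 37 of all genes. Lane 8 held only naive mice and lane 4 only 1 STAM vehicle mouse, so lane could not be fully told apart from group. The lane terms also left that fit few degrees of freedom. The LXR count was 4 without naive mouse 1 and fell to 1 without naive mouse 2, 3 or 4, STAM vehicle mouse 2 or 4 or treated mouse 1 or 4, and the uptake count to 1 without naive mouse 3 or STAM vehicle mouse 3 or 4.

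The second comparison asked what I-BET151 did in STAM liver. The genes known as SREBP2 targets had lower means in treated mice (Srebf2, Insig1 and Stard4), while Scap, Insig2, Mylip and Scarb1 differed by 0.13 or less on the log2 scale. None of the 7 passed the edgeR test with its limit of 0.1 on the adjusted p, against 0.351% of all genes, although 3 had an unadjusted p under 0.05, against 8.68% of all genes. In 2 of them, Srebf2 and Stard4, every treated mouse lay below every vehicle mouse, a pattern that 2.63% of all genes showed, while 2.41% lay wholly higher and 5.04% lay apart in either direction. This separation depended on the TMM scaling. As shares of total counts both genes overlapped, since treated mouse 3 then lay above the lowest vehicle mouse. The middle member in rank had a log2 fold change of -0.10, compared with 0.02 for the genes tested as a whole.

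Srebf2 was at 46.2, 54.6, 47.2 and 49.6 CPM in the treated mice, all below the lowest STAM vehicle mouse at 58.6 CPM. Its mean was 49.4 ± 3.78 CPM in treated and 65.5 ± 8.85 CPM in vehicle mice, a log2 fold change of -0.41 ± 0.12, or 1.33-fold lower (edgeR adjusted p = 0.276, unadjusted 0.00385). In the 3 sequencing lanes that held a mouse of both STAM groups, Srebf2 of the treated mouse was at 49.6 against 77.6 CPM, 46.2 against 58.6 CPM and 47.2 against 59.2 CPM. Because the groups did not overlap in TMM-scaled CPM, the treated mouse had to be the lower one in each lane, so the direction adds nothing further. As shares of total counts the last pair had the other order. Treated mouse 3 had 2633 of 34711229 counts and vehicle mouse 3 had 3059 of 46671430.

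Stard4, the cholesterol transporter, had the largest difference of the 7. It was at 26.7, 40.3, 34.6 and 51.8 CPM in the vehicle mice and at 21.9, 25.996, 20.5 and 12.04 CPM in the treated mice. The groups did not overlap, but only narrowly, with the highest treated mouse at 25.996 and the lowest vehicle mouse at 26.7 CPM. As shares of total counts they overlapped, with treated mouse 3 at 1142 of 34711229 and vehicle mouse 1 at 1109 of 40279918. The log2 fold change was -0.93 ± 0.26, or 1.91-fold lower (edgeR adjusted p = 0.234, unadjusted 0.00288). Its log2 differences within the 3 shared lanes were -2.10 to -0.29, with the sign again fixed by groups that did not overlap.

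Insig1, the brake on SCAP that is itself switched on by SREBP2, was at 102, 97.4, 73.8 and 126 CPM in the vehicle mice and at 42.7, 67.9, 89.4 and 35.3 CPM in the treated mice. Treated mice 1, 2 and 4 lay below every vehicle mouse, and treated mouse 3 lay within the vehicle range. As a share of total counts treated mouse 3 lay above every vehicle mouse, at 4989 of 34711229 against 5944 of 46888875 in vehicle mouse 4. The log2 fold change was -0.76 ± 0.25 (edgeR adjusted p = 0.373, unadjusted 0.00963). Without treated mouse 3, the library that stood apart, it was -1.03 and passed the same edgeR test (adjusted p = 0.0475), as did 2.38% of all genes. Insig1 was lower in the treated mouse in 2 of the 3 shared lanes, with log2 differences of -1.84 and -1.26, and higher by 0.28 in the lane of treated mouse 3.

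The call on these 3 genes depended on the test. DESeq2 on all 12 mice passed Stard4 (adjusted p = 0.0498) and Srebf2 (adjusted p = 0.0842) but not Insig1 (adjusted p = 0.124), and limma-voom, which gave less weight to variable libraries, passed all 3 (adjusted p = 0.0257 for Stard4, 0.0276 for Srebf2 and 0.00310 for Insig1). Of all genes DESeq2 called 0.907% and limma-voom 7.16%. DESeq2 without treated mouse 3 passed all 3 as well (adjusted p = 0.0308 for Stard4, 0.0367 for Srebf2 and 0.000506 for Insig1), as it did without mouse 2 (adjusted p = 0.00987, 0.0245 and 0.0564 in the same order), but it passed only Stard4 without mouse 1 (0.0925) and none without mouse 4, where adjusted p were 0.170, 0.171 and 0.300. Over all 26 alternative settings the fold change was below 0 each time for Stard4 (-1.24 to -0.75), Srebf2 (-0.48 to -0.30) and Insig1 (-1.27 to -0.54), and the test was passed in 5, 4 and 4 of them.

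**Figure D2:**
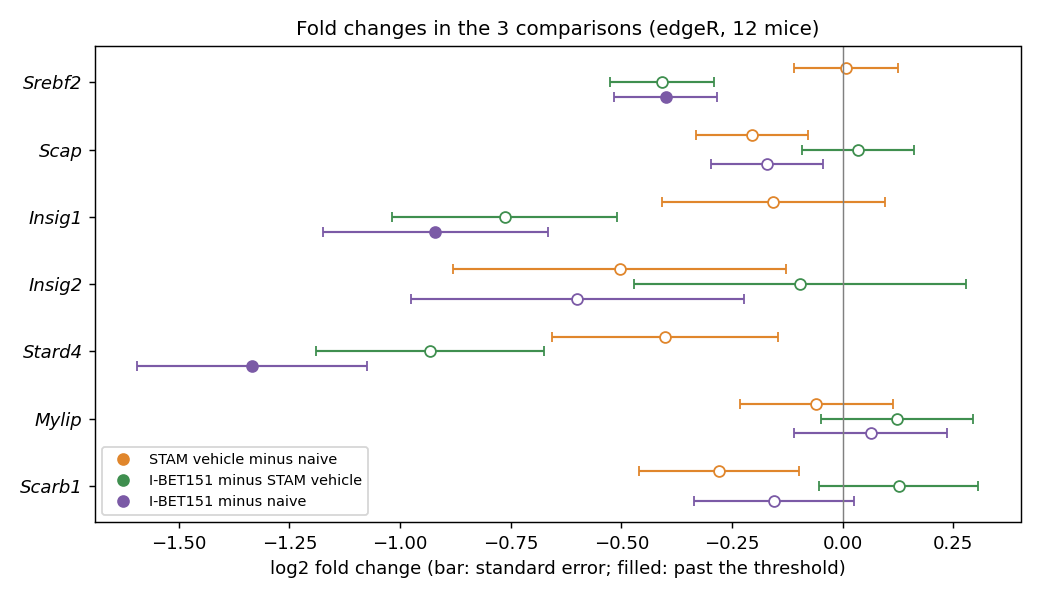
Log2 fold change of each gene (horizontal axis, with standard error) in the 3 comparisons from 1 edgeR fit to 12 mice. Filled points passed the threshold of their comparison: Srebf2, Insig1 and Stard4 against naive liver, at -0.40, -0.92 and -1.33, and no gene in either other comparison.

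The remaining members did not pass under any of the 26 settings in this comparison. Scap, the escort protein, was at 101, 101, 89.8 and 111 CPM in vehicle and at 91.7, 108, 106 and 105 CPM in treated mice, which overlapped (log2 fold change 0.03 ± 0.13, edgeR adjusted p = 0.9755). Mylip was at 27.2, 32.1, 23.7 and 28.9 CPM in vehicle and at 31.6, 23.1, 29.0 and 38.0 CPM in treated mice, again overlapping (0.12 ± 0.17, edgeR adjusted p = 0.909). Scarb1 was at 227, 211, 149 and 196 CPM in vehicle and at 231, 216, 154 and 253 CPM in treated mice (0.13 ± 0.18, edgeR adjusted p = 0.910). Both groups spanned nearly the same range, and the lowest mouse in each came from the same lane. Signs of Scap and Mylip turned under some settings, and that of Scarb1 turned under none of the 26.

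Insig2, the second INSIG gene, was the most variable member. Its levels were 455, 325, 671 and 431 CPM in naive, 484, 284, 239 and 320 CPM in STAM vehicle and 252, 332, 120 and 538 CPM in treated mice. The treated group ran from below the lowest to above the highest STAM vehicle mouse, with a coefficient of variation of 56.3% against 32.2% and 30.8% in STAM vehicle and naive mice. The log2 fold change against vehicle was -0.10 ± 0.38 (edgeR adjusted p = 0.978) and became 0.18 without treated mouse 3 and -0.49 without treated mouse 4. Srebf2, by contrast, had a coefficient of variation of 7.65% in treated and 3.72% in naive mice.

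The balance of the INSIG pair differed from mouse to mouse. On counts per kilobase, the log2 ratio of Insig1 to Insig2 was -1.98, -1.19, -2.40 and -1.90 in naive mice, -2.07, -1.38, -1.53 and -1.18 in STAM vehicle mice and -2.39, -2.12, -0.26 and -3.76 in treated mice. All 12 were below 0, so Insig2 was the more abundant transcript in each mouse. Treated mouse 3 had the ratio closest to 0 and treated mouse 4 the lowest of all. The group means were -1.87 ± 0.50, -1.54 ± 0.39 and -2.13 ± 1.44. Group means did not differ by more than this spread in exact two-sided permutation tests over 70 arrangements (p = 0.371 for STAM vehicle against naive, 0.514 for treated against STAM vehicle and 0.743 for treated against naive, each 0.743 after adjustment over the 3 tests, where the smallest p possible is 0.0286).

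**Figure D3:**
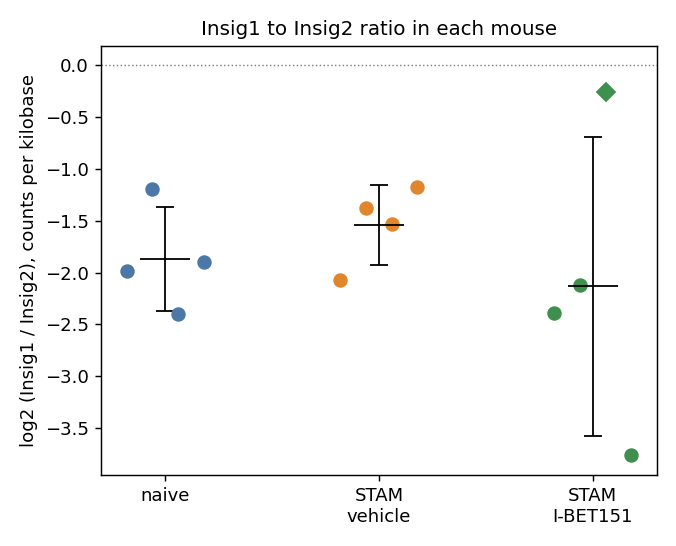
Log2 ratio of Insig1 to Insig2 per kilobase in each mouse, with the mean and SD of each group of 4 and a dotted line at equal levels. All mice lie below the line, and the treated mice spread from -3.76 to -0.26 against -2.40 to -1.18 in the other 8.

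In the rest of the pathway the enzymes of sterol synthesis were lower in treated mice. All 20 had a lower mean, 8 fell in the test and 0 rose (0.256% of all genes fell). Idi1, an isomerase of the mevalonate pathway, had a log2 fold change of -1.79 ± 0.34 (edgeR adjusted p = 0.0554), Sqle, squalene epoxidase, of -1.62 ± 0.27 (edgeR adjusted p = 0.0366) and Msmo1, a sterol oxidase of the same pathway, of -1.55 ± 0.24 (edgeR adjusted p = 0.0304). The median enzyme of the list stood at -0.68, compared with 0.02 for the median gene. The 8 calls became 0 with sequencing lane as a covariate, with only the groups compared and with total counts as the only scaling, 1 with the replicate block and 17 with limma-voom. They became 5 and 3 without STAM vehicle mouse 2 and 4, 2 without treated mouse 1 and 11 without treated mouse 3, where 1.46% of all genes fell. The list median was -0.76 with lane as a covariate. Of the 14 processing genes 0 passed by edgeR, with 1 at an unadjusted p under 0.05 (8.68% of all genes). This was Syvn1 at -0.50 ± 0.12 (edgeR adjusted p = 0.145), and the protease gene Mbtps1 followed at 0.21 ± 0.10 (edgeR adjusted p = 0.600). Without treated mouse 3 the processing list had 1 call. Of the 12 LXR genes 0 passed by edgeR, with 2 at an unadjusted p under 0.05, and the lowest adjusted p by edgeR was that of Scd1 (-1.44 ± 0.53, adjusted p = 0.422).

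**Figure D4:**
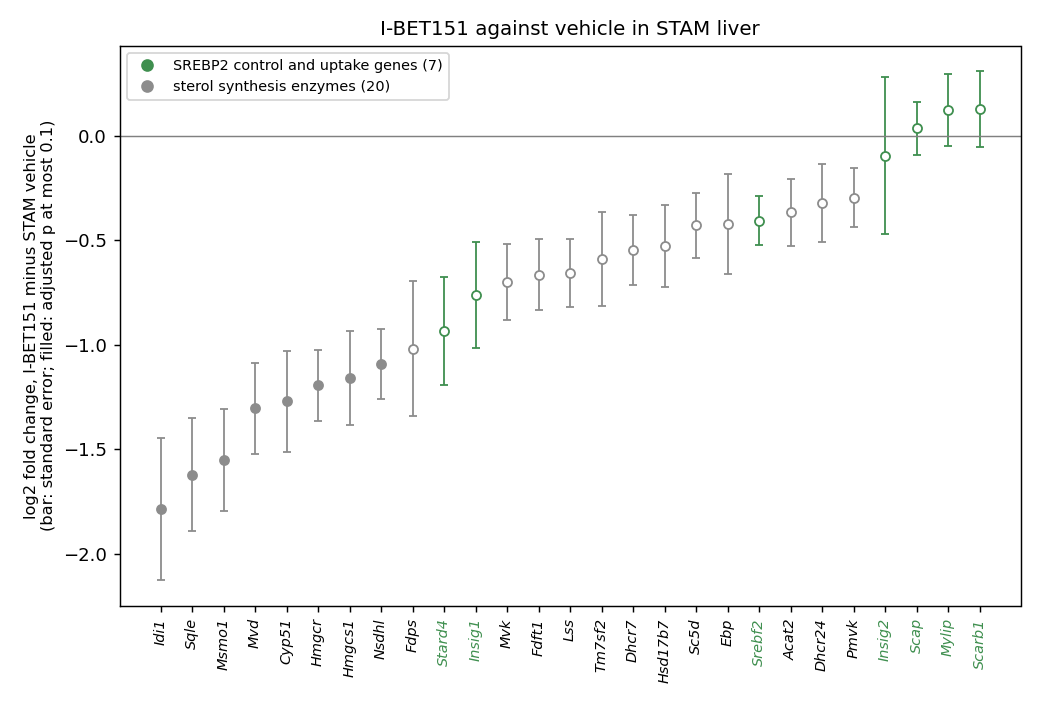
Log2 fold change with standard error, I-BET151 against vehicle in STAM liver, for the 7 members (green) and the 20 sterol synthesis enzymes (grey), ordered by value, with filled points for an adjusted p of at most 0.1. Stard4 (-0.93), Insig1 (-0.76) and Srebf2 (-0.41) lie among the enzymes, and Insig2, Scap, Mylip and Scarb1 lie to the right of all 20.

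The third comparison set I-BET151-treated STAM liver against naive liver, which shares its treated mice with the second comparison and its naive mice with the first. Of the 7 members 3 fell (limit of 0.05 on the adjusted p) and 0 rose, against 5.25% of all genes lower, 9.88% higher and 15.1% called in either direction. In the same 3, Srebf2, Insig1 and Stard4, every treated mouse lay below every naive mouse, which held for 8.85% of all genes, and 19.8% lay apart in either direction. This separation too depended on the TMM scaling. As a share of total counts, treated mouse 3 lay above every naive mouse for Srebf2 and Insig1, and above naive mouse 3 for Stard4. The middle member in rank had a log2 fold change of -0.40, compared with 0.06 for the genes tested as a whole.

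Stard4 was at 36.9, 66.6, 41.4 and 57.6 CPM in naive mice, against at most 25.996 CPM in treated mice. It fell by 1.33 on the log2 scale (standard error 0.26), or 2.52-fold (edgeR adjusted p = 0.00544). The call was lost only with sequencing lane as a covariate among the 26 settings (edgeR adjusted p = 0.303). That fit, in which lane and group were partly confounded, called 85 of all genes against 2546 in the main fit. In STAM vehicle liver its mean of 38.3 ± 10.6 CPM lay between those of naive (50.6 ± 13.9) and treated mice (20.1 ± 5.86).

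Insig1 was at 102, 127, 113 and 103 CPM in naive mice and at most at 89.4 CPM in treated mice, a fall of 0.92 on the log2 scale (standard error 0.25, edgeR adjusted p = 0.0278). Srebf2 fell by 0.40 (standard error 0.12, edgeR adjusted p = 0.0355), from a narrow naive range of 62.5 to 68.2 CPM. These calls held in 16 and 13 of the 26 settings, against 25 for Stard4. Insig1 was lost without naive mouse 2, 3 or 4 and without treated mouse 1 or 4 (edgeR adjusted p = 0.0756, 0.0628, 0.0536, 0.0685 and 0.0588), and Srebf2 without naive mouse 1, 2, 3 or 4, STAM vehicle mouse 2 or treated mouse 1 or 4 (edgeR adjusted p = 0.0646, 0.103, 0.0796, 0.0818, 0.0539, 0.0808 and 0.0683). With total counts as the only scaling, which moved the median gene by 0.40, the fold changes were -0.43 for Insig1 and -0.02 for Srebf2. Within the 2 lanes that held both groups, Srebf2, Insig1 and Stard4 were lower in the treated mouse, which groups that did not overlap made certain. Scap, Mylip and Scarb1, which were not called, were also lower in both lanes, and Insig2 in 1 of the 2.

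The other members did not pass against naive liver. Insig2 had a log2 fold change of -0.60 ± 0.38 (edgeR adjusted p = 0.286), beside -0.50 for STAM vehicle against naive. DESeq2 without treated mouse 4 passed it (-1.03, adjusted p = 0.0290). Scap at -0.17 ± 0.13, Scarb1 at -0.15 ± 0.18 and Mylip at 0.06 ± 0.17 had edgeR adjusted p of 0.368, 0.580 and 0.826. Naive mice had 122, 98.5, 130 and 113 CPM of Scap, 268, 212, 237 and 234 CPM of Scarb1 and 38.4, 27.5, 25.8 and 24.8 CPM of Mylip. All 3 ranges overlapped those of the treated mice.

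Against naive liver 12 of the 20 sterol synthesis enzymes fell and 0 rose, led by Tm7sf2 (-2.08 ± 0.23), Idi1 (-1.84 ± 0.34) and Sqle (-1.28 ± 0.27), with a list median of -0.77. Of the 18 uptake and handling genes 4 rose, Cd36 (1.86 ± 0.31), the VLDL receptor gene Vldlr (1.58 ± 0.35), Soat2, which esterifies cholesterol (0.95 ± 0.25), and Gramd1b (0.63 ± 0.19), and among those that fell were Pdzk1, whose product anchors SR-BI in the hepatocyte membrane (-0.73 ± 0.18), and the lysosomal lipase gene Lipa (-0.61 ± 0.19). Of the 12 LXR genes Scd1 fell (-5.22 ± 0.62) and 0 rose, with a count of 2 without naive mouse 1, STAM vehicle mouse 3 or treated mouse 2 or 3. Of the 14 processing genes 0 passed by edgeR, with 2 at an unadjusted p under 0.05 (32.6% of all genes), Erlin2 (-0.32 ± 0.11, edgeR adjusted p = 0.0656) and Srebf1 (0.73 ± 0.26, edgeR adjusted p = 0.0738), and 1, 2 and 1 passed without treated mouse 2, 3 and 4. Without treated mouse 3, 20.4% of all genes passed. With sequencing lane as a covariate 1 of the 20 enzymes and 0 of each other list passed, and with total counts as the only scaling 5 enzymes did.

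The members did not vary as 1 block over the 12 mice. Srebf2, Insig1 and Stard4 varied together, with Pearson r of log2 CPM of 0.79 for Srebf2 and Insig1, 0.84 for Srebf2 and Stard4 and 0.83 for Insig1 and Stard4. After each group's mean was subtracted r was 0.39, 0.53 and 0.54. Insig2 paired with Scarb1 (r = 0.79 and 0.81 within groups) and not with Insig1 (0.05 and -0.51 within groups). These values of r, and those below, share the libraries and their scaling, and are descriptions without a test.

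Among 13139 genes with a mean of at least 1 CPM, those most like Insig1 over the 12 mice included Akap13 (r = 0.959, 0.902 within groups) and Noct (0.953 and 0.887), the nocturnin gene, which has a daily rhythm in liver. Noct was at 38.2, 77.3, 48.4 and 46.03 CPM in naive, 37.2, 59.9, 35.6 and 58.1 CPM in STAM vehicle and 11.997, 16.4, 32.4 and 7.81 CPM in treated mice. In TMM-scaled CPM all 4 treated mice lay below the other 8, while 2.63% of all genes lay wholly lower against STAM vehicle and 8.85% against naive mice. As a share of total counts treated mouse 3 did not, at 1807 of 34711229 against 1841 of 46671430 in STAM vehicle mouse 3. Noct did not pass against STAM vehicle (-1.48 ± 0.37, edgeR adjusted p = 0.169) but did against naive liver (-1.61 ± 0.37, edgeR adjusted p = 0.0122). For Noct as for Insig1 treated mouse 3 was the highest of the treated mice and treated mouse 4 the lowest. Noct was picked for its likeness to Insig1, so a shared order of mice follows from the choice. For Insig2 the most alike were Clpx (0.963 and 0.963), a mitochondrial chaperone gene, Ipmk (0.948 and 0.954) and Arntl, which encodes the clock factor BMAL1 (0.941 and 0.931). Arntl was at 20.7, 12.2, 20.8 and 13.3 CPM in naive, 14.6, 11.4, 6.83 and 9.82 CPM in STAM vehicle and 8.61, 9.40, 4.73 and 16.1 CPM in treated mice. In TMM-scaled CPM treated mouse 3 was the lowest of all 12 and treated mouse 4 the highest of the treated mice for both genes. Without mouse 3 r was 0.903. This shared order too follows from the choice of Arntl by its r to Insig2.

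**Figure D5:**
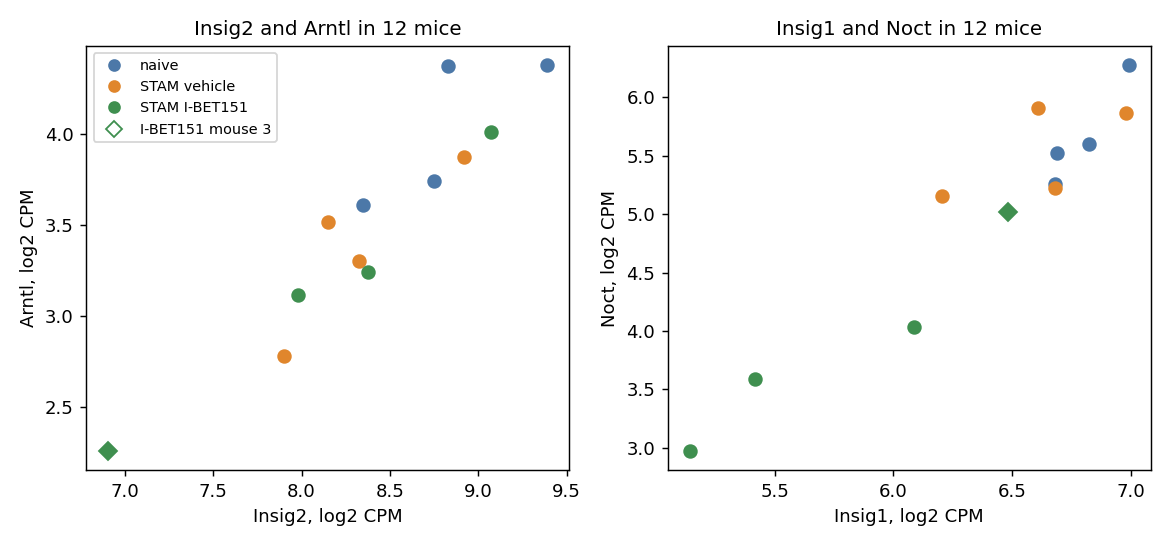
Log2 CPM of Insig2 against Arntl (left) and of Insig1 against Noct (right), 1 point a mouse, colours for the 3 groups and a diamond for I-BET151 mouse 3. Arntl ran with Insig2 over the 12 mice (r = 0.941) and Noct with Insig1 (r = 0.953).

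Stard4 was most like genes of sterol synthesis, Idi1 (r = 0.947, 0.891 within groups) and Sc5d (0.934 and 0.781), followed by Akr1c20 (0.924 and 0.858). Idi1, picked here by its r to Stard4, was at 7.76, 8.65, 8.28 and 2.44 CPM in treated mice, and treated mouse 4 was the lowest of the 12 mice for both Idi1 and Stard4. For Srebf2 the list was Rrp8 (0.936 and 0.851), Atp1b1 (0.935 and 0.768) and the sterol enzyme gene Nsdhl (0.915 and 0.621). Scap was most like Cluh (0.854 and 0.824), Tln2 (0.850 and 0.775) and Pafah2 (0.832 and 0.813). Mylip was most like Ccn2 (0.907 and 0.919), Tgfbr3 (0.860 and 0.877) and Tspan7 (0.814 and 0.8292), and Scarb1 like Ssbp3 (0.931 and 0.936), Tmem218 (0.923 and 0.902) and Pcdh1 (0.920 and 0.904). Of these, Idi1, Sc5d and Nsdhl were in the list of sterol synthesis enzymes.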

How the data were processed

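Liver RNA of 12 mice, 4 a group, was sequenced from stranded mRNA libraries (paired-end reads). The authors aligned reads to mm10 with STAR 2.5.1b and deposited raw counts per Ensembl gene, made with HTSeq per the labels. The annotation release and strand setting are not given in the sources used here. Symbols came from GENCODE M21 (47310 of 47729 gene rows), exon lengths from its merged exons. All 12 mice were fitted in 1 model with edgeR 4.0.16 (R 4.3.3): filterByExpr with a minimum count of 10, TMM scaling, glmQLFit and glmQLFTest, Benjamini-Hochberg adjustment over 16823 genes, thresholds of 0.05, 0.1 for treated against STAM vehicle, after the study's methods, which used DESeq2 and left out 1 treated sample that they do not name. Log2 CPM used a prior count of 2. DESeq2 1.42.0, limma 3.58.1 (voom with sample weights), other scalings and filters, leave-one-out, a replicate block and sequencing lane were alternatives. Scripts were tested on simulated counts. Depth gave every member at least 524 counts.

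Members and lists were chosen with earlier results of these data known. The text names the 7 members in every comparison, up to 3 called genes in each direction from each list with the largest fold changes, or up to 2 with the lowest adjusted p where none was called, and the 3 genes with the highest r to each member. Some genes that this rule names are not reported here. The ratio of Insig1 to Insig2, the per-mouse values of Noct, Arntl and Idi1 and the values within lanes were chosen after the data were seen. Replicate counts differed beyond sampling noise (chi-square per degree of freedom 30.8 to 644). P-values measure the spread between these mice.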

Additional observations from a re-analysis of the deposited data

How the results depend on the processing

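Over 26 alternative settings, the values below left the main result. Genes called between STAM vehicle and naive liver numbered 1195, but 1892 with DESeq2, 5672 with limma-voom and sample weights, 3879 with only the groups compared, 742 with the replicate block and 37 with sequencing lane as a covariate. Leaving out 1 mouse gave 546 (without naive mouse 3) to 3779 (without treated mouse 3), and DESeq2 gave 1817, 2060, 4378 and 1853 without treated mouse 1, 2, 3 and 4. For treated against STAM vehicle, 59 genes became 6 with total counts only, 101 with no filter, 268 with DESeq2, 1205 with limma-voom, 8 with only the groups compared, 10 with the replicate block and 0 with lane. Leaving out 1 mouse gave 13 (without STAM vehicle mouse 4) to 403 (without treated mouse 3), and DESeq2 without these 4 mice in turn gave 214, 564, 1288 and 217. For treated against naive, 2546 became 4880 with limma-voom, 1262 with only the groups compared, 1573 with the block and 85 with lane, and leaving out 1 mouse gave 1292 to 3731, or with DESeq2 2849 to 4482, with 4105 without treated mouse 3. The cause was not tested.

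Members called for treated against STAM vehicle numbered 2 with DESeq2 and 3 with limma-voom (0 in the main test), 0 to 1 without single mice and 0 to 3 with DESeq2. For treated against naive, 3 became 1 with upper-quartile scaling, total counts, only the groups compared or the replicate block and 0 with lane, and 1 to 3 without single mice.

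Directions turned only in members not called. For STAM vehicle against naive, Srebf2 was at -0.010 with RLE scaling, -0.015 with DESeq2 and -0.0066 with only the groups compared, and at -0.093 to 0.055 without single mice (with DESeq2 -0.0157, -0.017, -0.0098 and -0.0158 without treated mouse 1 to 4). Total counts gave Scap 0.067, Insig1 0.11 and Mylip 0.20, limma-voom gave Mylip 0.099, and lane gave Insig1 0.072 and Insig2 0.13. Mylip ran from -0.13 to 0.11 without single mice. For treated against STAM vehicle, limma-voom gave Scap -0.027 and Insig2 0.21. Without single mice Insig2 ran from -0.49 to 0.18, Scap from -0.017 to 0.086 and Mylip from -0.00040 to 0.23. DESeq2 gave Scap -0.012 without treated mouse 2, Insig2 0.19 without treated mouse 3 and Mylip -0.022 without treated mouse 4. For treated against naive, total counts gave Scap 0.22 and Scarb1 0.17, limma-voom Scarb1 0.021 and lane Mylip -0.079. Mylip ran from -0.069 to 0.23 without single mice, and was at -0.10 in DESeq2 without treated mouse 4.

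Equal replicate numbers did not pair the mice: deviations of same-numbered mice had r of -0.351 to 0.0933 (0 of 12 over 0.1), mean -0.0927 against 0.0305 for other pairs. With the replicate block the members called against naive were Stard4 alone, with Srebf2 at an adjusted p of 0.0737 and Insig1 at 0.0538. Total counts moved the median gene by 0.27, 0.11 and 0.40 in the 3 comparisons and gave 1258 higher and 61 lower calls for STAM vehicle against naive (963 and 232 with TMM) and 3234 and 246 for treated against naive (1662 and 884). In simulated counts for treated against STAM vehicle edgeR found 67% of genes changed 2-fold, and 8.79% of its calls were false. The simulation held no lane effect and no library whose composition stood apart, so the 67% does not measure the power in these mice.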
